A study of Mus musculus with 8 samples.

Results

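The 10 genes described here encode the machinery that licenses and copies DNA: Mcm2, Mcm3, Mcm4, Mcm5, Mcm6 and Mcm7 of the replicative helicase, the sliding clamp Pcna, the DNA ligase Lig1, the ribonucleotide reductase subunit Rrm1 and the dUTPase Dut. They were taken by gene name from the 43346 genes of the deposited count table, and all 10 were among the 16111 genes with enough counts to be tested. The mRNA of the cardiac ventricles was sequenced in male C57BL/6 mice that had received, at 7 weeks of age, either 1000000 LLC1 cells in PBS (4 tumor-bearing mice) or PBS alone (4 PBS-injected mice), with tissue taken 14 days after the injection. LLC1 is a Lewis lung carcinoma line of C57BL/6 origin and was placed under the skin of the left flank, so the sequenced ventricle is host tissue away from the injection site. Each library came from a different mouse, no group carried a transgene or a gene deletion, and the ventricle was sequenced as a whole with all its cell types. Mice are named by group and by the replicate code of their labels: LLC1 1-2, 1-3, 1-5 and 2-2, and PBS 1-1, 1-3, 2-1 and 2-5.

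The products of Mcm2 to Mcm7 form a ring that is loaded onto replication origins in G1 phase and becomes the core of the helicase that opens the double helix in S phase. PCNA encircles the DNA and holds the polymerases on it, LIG1 seals the Okazaki fragments of the lagging strand, RRM1 is the large subunit of the enzyme that makes deoxyribonucleotides, and the dUTPase keeps uracil out of new DNA. Many of these genes are classical targets of the E2F transcription factors. Most cardiomyocytes of the adult mouse do not divide, so cycling cells of the ventricle are largely endothelial cells, fibroblasts and immune cells. Transcript levels were given as counts per 1000000 counts after scaling of the libraries by the TMM method (CPM), with the SD over 4 mice. In whole tissue, fewer cells of a type and less of a transcript per cell cannot be told apart.

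The promoters of the 4 genes with an unadjusted p under 0.05 in the comparison of the groups (Mcm3, Mcm5, Mcm6 and Rrm1) are shown first, to lay out the promoter words that some of them share. Each sequence is the 160 bases before the RefSeq transcription start (build GRCm38.p6), written along the strand of the gene. Capitals mark CCAAT boxes (CCAAT or ATTGG) and E2F words, which were searched as TTTCCCGC, TTTCGCGC, TTTGCCGC and TTTGGCGC on both strands. These are the windows chr1:20820313-20820472 (Mcm3, minus strand), chr1:128359706-128359865 (Mcm6, minus strand), chr8:75109349-75109508 (Mcm5, plus strand) and chr7:102441535-102441694 (Rrm1, plus strand), none of which overlaps an exon of the GENCODE annotation.
Mcm3: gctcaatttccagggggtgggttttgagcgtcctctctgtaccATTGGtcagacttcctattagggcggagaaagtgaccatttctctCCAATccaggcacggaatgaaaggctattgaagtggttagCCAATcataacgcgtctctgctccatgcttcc
Mcm6: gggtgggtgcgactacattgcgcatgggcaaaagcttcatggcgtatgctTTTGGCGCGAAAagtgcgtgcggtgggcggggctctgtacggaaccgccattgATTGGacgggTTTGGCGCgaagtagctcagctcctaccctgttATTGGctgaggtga
Mcm5: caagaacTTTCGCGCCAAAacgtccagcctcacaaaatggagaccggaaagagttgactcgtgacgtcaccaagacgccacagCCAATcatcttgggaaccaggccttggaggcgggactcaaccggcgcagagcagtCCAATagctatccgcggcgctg
Rrm1: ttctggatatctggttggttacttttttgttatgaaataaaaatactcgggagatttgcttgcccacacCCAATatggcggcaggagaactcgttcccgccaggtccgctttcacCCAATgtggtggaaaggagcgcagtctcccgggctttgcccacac

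In the Mcm6 window, 1 E2F word lies 47 to 40 bases before the start, and 2 further words on opposite strands overlap each other between 110 and 99 bases before it. The Mcm5 window holds an overlapping pair of the same kind between 153 and 142 bases before the start. The Mcm3 window has no such word but 3 CCAAT boxes, and the Rrm1 window 2. Over the 250 bases before the start, 9 of the 10 genes had a promoter sequence, and 3 of these 9 held an E2F word (33.3%; Mcm5, Mcm6 and Mcm7), compared to 2.16% of 27025 genes and to 13 of 66 (19.7%) among the further replication genes described below. A CCAAT box, a much shorter word, was present in 7 of the 9 (77.8%) and in 37.5% of the 27025 genes and 48.5% of the 66 further replication genes. The E2F word of Mcm7 lies 165 to 158 bases before a RefSeq start whose 160-base window overlaps exons of Ap4m1 and Mcm7. No E2F word was found before the other RefSeq start of Mcm7. These matches are descriptions of letters and not of bound sites. The genes with an E2F word had fold changes of either sign, negative for Mcm5 and Mcm6 and positive for Mcm7.

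The libraries held 15342214 to 19747596 counts in tumor-bearing mice and 12480706 to 16192158 counts in PBS-injected mice, and a single library had between 31 and 550 counts for any of the 10 genes. PBS 1-1 stood apart from the other libraries: the chi-square statistic per degree of freedom of its counts was 57.88 to 86.06 against each other PBS mouse, compared to 4.52 to 15.87 for every other pair within a group. The calls, the overlap of the groups and the summed helicase levels are therefore also given without it. Markers of cardiomyocytes, the defining cells of the labelled tissue, were abundant, with a summed level (Myh6, Tnnt2, Actc1, Tnni3 and Myl2) of 75629 to 90808 CPM over the 8 mice.

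Of the 10 genes, 2 were lower in tumor-bearing mice at a false discovery rate (FDR) under 0.05 and 0 were higher, by edgeR's quasi-likelihood test with Benjamini-Hochberg adjustment over 16111 genes. The 2 were Mcm3 and Mcm6, which encode subunits of the same helicase ring. Among all genes tested, 8.73% passed this test in either direction and 4.61% passed it as lower. At an unadjusted p under 0.05 there were 4 lower genes, Mcm3, Mcm5, Mcm6 and Rrm1, compared to 13% of all genes tested. The median log2 fold change was -0.19 over the 10 genes, -0.37 over Mcm2 to Mcm7 and -0.17 over the other 4, compared to -0.01 over all genes. Of the 10 fold changes 9 were negative, compared to 8387 of 16111 for all genes.

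**Figure D1:**
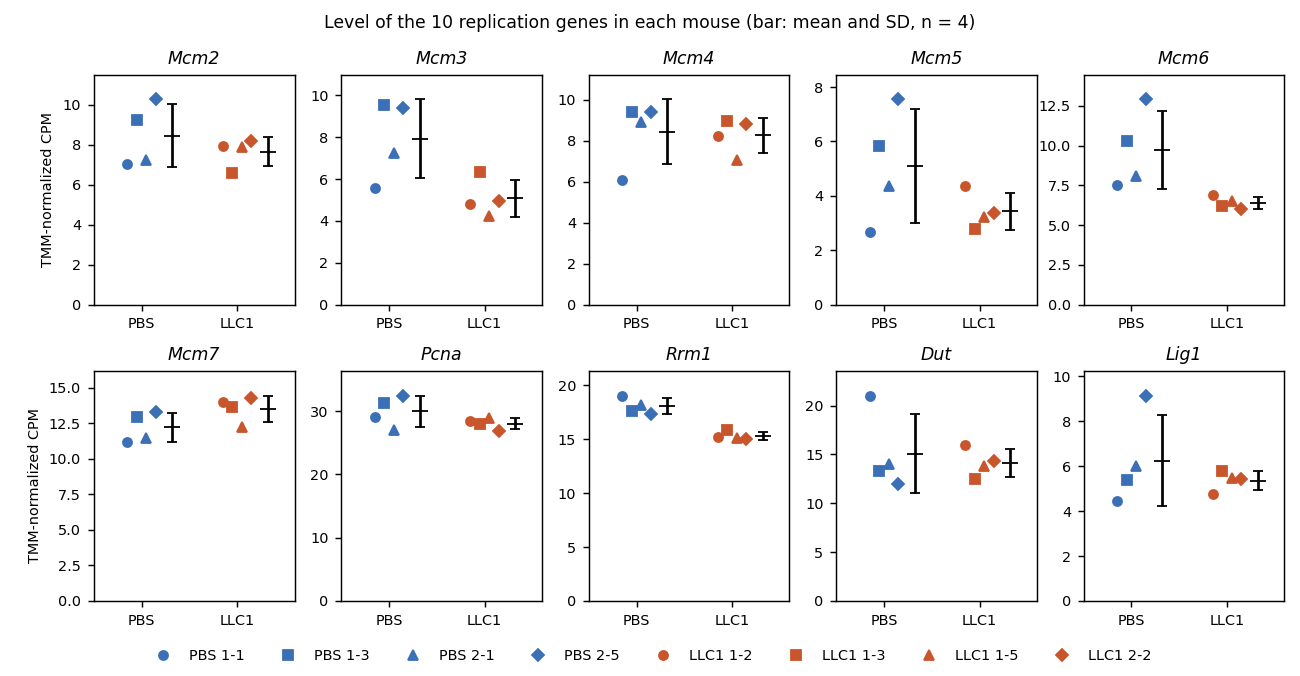
TMM-normalized CPM (vertical axes, from 0) of the 10 genes in each of 4 PBS-injected and 4 tumor-bearing mice, with points for mice and black bars for the mean and SD. For Mcm6 and Rrm1 all 4 LLC1 points lie under all 4 PBS points, while for the other genes the groups overlap.

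Mcm6 encodes one of the helicase subunits and had the lowest adjusted p of the 10 genes. It stood at 6.88, 6.19, 6.51 and 5.99 CPM in LLC1 1-2, 1-3, 1-5 and 2-2 and at 7.55, 10.3, 8.12 and 12.9 CPM in PBS 1-1, 1-3, 2-1 and 2-5, the order of mice used for every gene below. All tumor-bearing mice were lower than all PBS-injected mice, and the tumor-bearing mice lay close together while the PBS-injected mice were widely spread. The means were 6.39 ± 0.390 CPM compared to 9.73 ± 2.44 CPM, a log2 fold change of -0.62 (SE 0.16, edgeR FDR 0.0350). By the exact two-sided permutation test of the 8 mice p was 0.0286, the smallest value that 4 mice against 4 can give.

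Mcm3 encodes the helicase subunit that sits between MCM5 and MCM7 in the ring. It was measured at 4.83, 6.32, 4.21 and 4.93 CPM in the LLC1 mice and at 5.58, 9.54, 7.24 and 9.39 CPM in the PBS mice. The groups overlapped through a single pair of mice, LLC1 1-3 being higher than PBS 1-1. The means were 5.07 ± 0.890 CPM compared to 7.93 ± 1.89 CPM, and the log2 fold change was -0.66 (SE 0.18, edgeR FDR 0.0436; exact permutation p = 0.0571).

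Mcm5 was the helicase subunit with the lowest level per kilobase and the widest spread. Its values were 4.37, 2.77, 3.23 and 3.37 CPM in the LLC1 mice and 2.66, 5.82, 4.36 and 7.56 CPM in the PBS mice, with PBS 1-1 the lowest of all 8 mice and PBS 2-5 the highest. The coefficient of variation was 40.9% in PBS-injected mice and 19.6% in tumor-bearing mice. The log2 fold change of -0.59 (95% confidence interval -1.16 to -0.02) was close to that of Mcm6, but edgeR's FDR was 0.180. It depended on single PBS mice, at -0.79 without PBS 1-1 (FDR 0.0239) and -0.34 without PBS 2-5 (FDR 0.390).

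The remaining helicase subunits, Mcm2, Mcm4 and Mcm7, did not pass the test. Mcm2 was measured at 7.94, 6.58, 7.88 and 8.20 CPM in the LLC1 mice and at 7.04, 9.25, 7.24 and 10.3 CPM in the PBS mice. Mcm4 was measured at 8.20, 8.95, 7.06 and 8.80 CPM and at 6.09, 9.39, 8.89 and 9.39 CPM, respectively. For both genes the groups overlapped, and PBS 1-1 was the lowest PBS mouse. The log2 fold change was -0.15 for Mcm2 (95% confidence interval -0.45 to 0.16, edgeR FDR 0.549) and -0.04 for Mcm4 (-0.35 to 0.27, edgeR FDR 0.882), intervals that leave room for a moderate change in either direction.

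Mcm7 was the one gene of the 10 with a positive fold change. Its values were 14.0, 13.6, 12.2 and 14.3 CPM in the LLC1 mice and 11.2, 12.9, 11.5 and 13.3 CPM in the PBS mice, so that 3 of the 4 tumor-bearing mice were higher than every PBS-injected mouse and LLC1 1-5 lay within their range. The log2 fold change was 0.14 (95% confidence interval -0.06 to 0.35, edgeR FDR 0.364). In the GENCODE annotation 7.25% of the Mcm7 exon bases are shared with Ap4m1 and 1.45% with Cops6, both on the opposite strand, and since the use of strand in counting is not given, reads of these bases cannot be assigned with certainty. The Mcm7-like gene Gm5487 shares 2157 bases with Mcm7 at 97.7% identity.

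**Figure D2:**
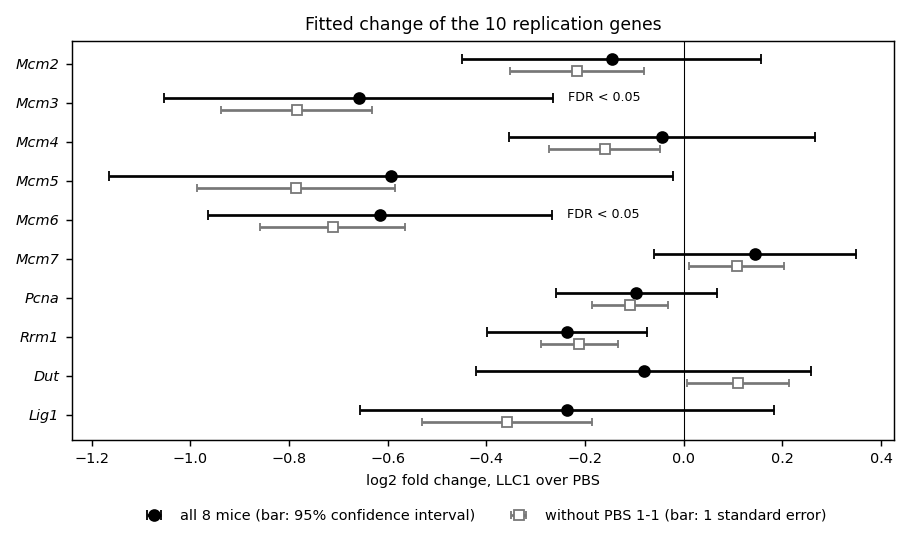
Fitted log2 fold change, LLC1 over PBS (horizontal axis), of the 10 genes with all 8 mice (filled circles, 95% confidence interval) and without PBS 1-1 (open squares, 1 standard error). The intervals of Mcm3, Mcm5, Mcm6 and Rrm1 with all 8 mice lie under 0, and Mcm3 and Mcm6 alone have an FDR under 0.05.

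The log2 fold changes of the 6 helicase subunits ran from -0.66 (Mcm3) to 0.14 (Mcm7), and differences between subunits were not tested. Within the PBS group all 6 levels were lowest in PBS 1-1. Added together, they came to 46.2, 44.4, 41.1 and 45.6 CPM in the LLC1 mice and 40.1, 57.2, 47.3 and 62.8 CPM in the PBS mice (44.3 ± 2.27 compared to 51.9 ± 10.1), so the sums overlapped through PBS 1-1 alone, the lowest of all 8 mice. Without PBS 1-1 the PBS mean was 55.8 ± 7.84 (n = 3), and the lowest PBS sum (47.3) lay above the highest LLC1 sum (46.2). After division of each level by the transcript length in the file, the share of each subunit in the sum was computed within each mouse, with 16.7% as the equal share. Mcm7 made up 26.7%, 27.1%, 26.2% and 27.6% in the LLC1 mice and 24.7%, 19.8%, 21.3% and 18.6% in the PBS mice, all LLC1 values being higher. Mcm6 made up 12.5%, 11.7%, 13.3% and 11.0% compared to 15.9%, 15.0%, 14.3% and 17.2%, all LLC1 values being lower.

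These shares depend on the transcript lengths in the file, which for Mcm2 and Mcm5 are shorter than the summed exons of GENCODE, and they are constrained to a fixed sum, so that a lower share of some subunits raises those of others. They use the same counts as the fold changes. The mean share of Mcm3 was 11.9% ± 1.97 in tumor-bearing mice and 15.8% ± 1.11 in PBS-injected mice, and that of Mcm5 was 8.82% ± 1.52 and 10.8% ± 2.52. Mcm2 (20.04% ± 2.11 and 18.9% ± 1.17) and Mcm4 (20.2% ± 1.51 and 17.7% ± 1.86) had mean shares that were not lower in tumor-bearing mice. PBS 1-1 had the lowest shares of Mcm3 and Mcm5 and the highest share of Mcm7 of the PBS mice, while its share of Mcm6 lay within their range.

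**Figure D3:**
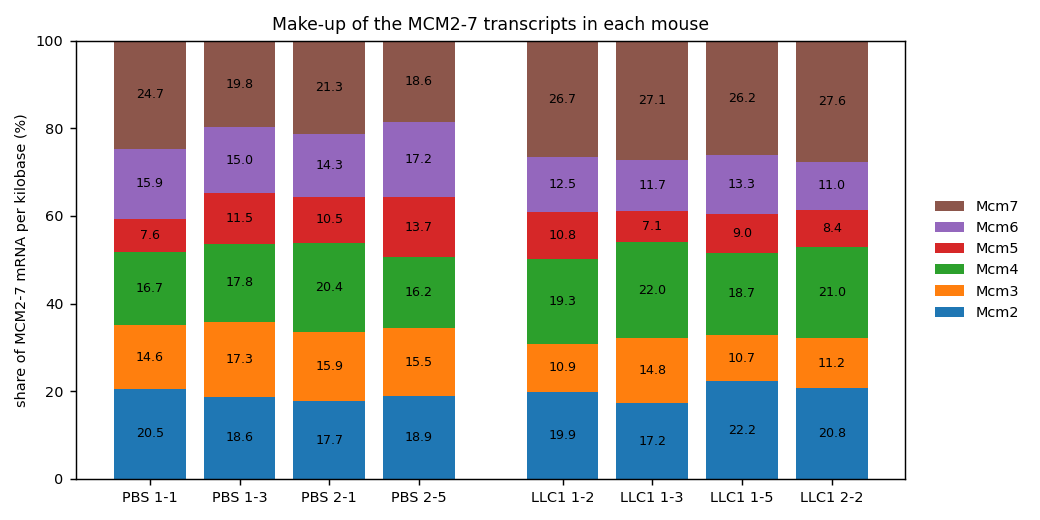
Share of each subunit (% of the summed CPM per kilobase of Mcm2 to Mcm7, vertical axis) in each mouse, stacked to 100%. The Mcm7 segment is 26.2% to 27.6% in the 4 LLC1 mice and 18.6% to 24.7% in the 4 PBS mice, and the Mcm6 segment is 11.0% to 13.3% and 14.3% to 17.2%.

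Pcna and Lig1 act at the moving fork rather than at the origin. Pcna was measured at 28.4, 28.0, 28.9 and 26.9 CPM in the LLC1 mice and at 29.1, 31.3, 27.0 and 32.5 CPM in the PBS mice, with LLC1 2-2 and PBS 2-1 the lowest of their groups. The means of 28.0 ± 0.835 CPM and 30.0 ± 2.41 CPM gave a log2 fold change of -0.10 (95% confidence interval -0.26 to 0.07, edgeR FDR 0.457). The processed pseudogene Pcna-ps2 shares 781 bases with Pcna at 99.2% identity and had 390 counts over all 8 mice.

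Lig1 was measured at 4.76, 5.79, 5.47 and 5.43 CPM in the LLC1 mice and at 4.46, 5.40, 6.00 and 9.15 CPM in the PBS mice. PBS 2-5 alone was well above the rest, and the other PBS mice covered the same range as the LLC1 mice. The log2 fold change was -0.24 (95% confidence interval -0.66 to 0.18, edgeR FDR 0.475). Of the Lig1 exon bases 5.79% are shared with Zswim9 on the opposite strand.

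Rrm1 and Dut serve the supply of nucleotides. Rrm1 was measured at 15.2, 15.9, 15.2 and 15.0 CPM in the LLC1 mice and at 19.0, 17.6, 18.2 and 17.4 CPM in the PBS mice. The groups did not overlap, and the spread within each was the smallest of the 10 genes, with coefficients of variation of 2.52% and 4.17%. The means were 15.3 ± 0.385 CPM and 18.05 ± 0.753 CPM, a log2 fold change of -0.24 (SE 0.07, edgeR FDR 0.0695; exact permutation p = 0.0286), so that Rrm1 did not pass the adjusted test. Rrm1 and Mcm6 were the 2 of 10 genes whose groups did not overlap with LLC1 lower, compared to 8.27% of all genes tested. Without PBS 1-1 they were 3 of 10 (Mcm3, Mcm6 and Rrm1), compared to 12.2% of all genes.

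Dut was measured at 15.9, 12.4, 13.8 and 14.3 CPM in the LLC1 mice and at 21.02, 13.3, 14.0 and 11.9 CPM in the PBS mice. PBS 1-1 was the highest mouse and PBS 2-5 the lowest, the reverse of their places for most helicase subunits. The log2 fold change was -0.08 (95% confidence interval -0.42 to 0.26, edgeR FDR 0.786).

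Per kilobase of transcript, the order of levels in PBS-injected mice was Pcna (12.5 CPM per kilobase), Dut (6.25), Rrm1 (4.51), Mcm7 (2.76), Mcm2 (2.51), Mcm4 (2.35), Mcm3 (2.11), Mcm6 (2.08), Mcm5 (1.49) and Lig1 (1.47). The ranges of Pcna, Dut and Rrm1 over the PBS mice were each separated from that of the next gene, while from Mcm7 down the ranges of every pair of neighbours overlapped, although Mcm4 was above Mcm3 and Mcm6 above Mcm5 within each of the 4 mice. In tumor-bearing mice Mcm7 (3.05 CPM per kilobase) was also separated from Mcm4 (2.30), and Mcm2 (2.27) from Mcm6 (1.37), and Mcm5 (1.00) was last. The transcript lengths of Mcm2, Mcm5 and Rrm1 in the file differ from the summed exons of the GENCODE annotation used here, so their places in this order depend on the length chosen.

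Much of the spread came from the PBS-injected mice. PBS 1-1 was the lowest mouse of its group for 7 of the 10 genes (Mcm2, Mcm3, Mcm4, Mcm5, Mcm6, Mcm7 and Lig1) and the highest for Rrm1 and Dut. PBS 2-5 was the highest for 6 genes (Mcm2, Mcm5, Mcm6, Mcm7, Pcna and Lig1) and the lowest for Rrm1 and Dut. No LLC1 mouse was the highest or the lowest of its group for more than 4 genes.

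Without PBS 1-1, 3 of the 10 genes were lower at an FDR under 0.05 (edgeR quasi-likelihood test), compared to 6.32% of all genes in the same fit. The log2 fold change was then -0.78 for Mcm3 (FDR 0.00654), -0.71 for Mcm6 (FDR 0.00898) and -0.79 for Mcm5 (FDR 0.0239), that of Rrm1 was -0.21 (FDR 0.0969) and that of Dut turned to 0.11 (FDR 0.540). Leaving out each of the other mice instead gave 1 lower gene without LLC1 1-3 (Mcm3) or PBS 2-1 (Mcm6) and 0 without LLC1 1-2, 1-5 or 2-2 or PBS 1-3 or 2-5. Calls over all genes in either direction numbered 546 to 1645 of 16111 in these 7 fits, compared to 1406 with all mice. Over the 8 such fits the log2 fold change of Mcm3 ranged from -0.78 to -0.57 (FDR 0.00654 to 0.130) and that of Mcm6 from -0.71 to -0.45 (FDR 0.00898 to 0.0981), so direction was kept while the call depended on the mice included.

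The first number of the replicate code, whose meaning the labels do not give, was 1 for 3 LLC1 and 2 PBS mice and 2 for 1 LLC1 and 2 PBS mice. The ratio of mean CPM, LLC1 to PBS, within these numbers was 0.678 and 0.593 for Mcm3, 0.731 and 0.569 for Mcm6, 0.815 and 0.566 for Mcm5 and 0.841 and 0.844 for Rrm1. These 4 are the genes with an unadjusted p under 0.05 in the main comparison. Of the others, Mcm2 (0.917 and 0.937) and Pcna (0.942 and 0.905) were under 1 for both numbers and Mcm7 (1.10 and 1.15) above it, while Mcm4 (1.04 and 0.964), Dut (0.819 and 1.10) and Lig1 (1.08 and 0.717) differed in direction between the numbers. With a single LLC1 mouse under number 2, these ratios carry no test. With this number in the model, Mcm6 had an edgeR FDR of 0.0480 and Mcm3 of 0.0540.

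Wider lists of replication genes were laid beside the 10 genes. Of 83 further genes listed, 75 were tested, of which 11 were lower at an FDR under 0.05 (edgeR) and 0 were higher, with 55 negative fold changes and a median log2 fold change of -0.18. Over all genes tested, 4.61% were lower and 8387 of 16111 had a negative fold change. Without PBS 1-1, 14 of the 75 were lower, compared to 6.32% of all genes. Leaving out each of the other mice gave 3 without LLC1 1-3, LLC1 1-5 or PBS 1-3, and 4 without LLC1 2-2. It gave 5 without LLC1 1-2, and 7 without PBS 2-1 or 2-5. Calls over all genes in either direction numbered 546 to 1645 of 16111 in those fits. They numbered 546 to 686 in the fits with 3 lower genes. By list, the genes that were lower numbered 1 of 8 for origin licensing, 3 of 10 for origin firing, 0 of 12 for the replicative polymerases, 1 of 21 for fork and Okazaki fragment factors, 2 of 13 for nucleotide supply and 4 of 9 for S-phase regulators. The shares for the polymerases and the fork factors were thus near or under that of all genes. Clspn among the fork factors and E2f2 among the S-phase regulators had few counts and entered the test through the PBS mice. With at least 10 counts asked of every mouse, 8 of the further genes were lower. The medians of these lists were -0.18, -0.39, -0.04, -0.18, -0.19 and -0.60. Mcm8 and Mcm9, relatives of the helicase subunits that act outside the ring, had log2 fold changes of 0.13 (FDR 0.664) and 0.04 (FDR 0.921).

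**Figure D4:**
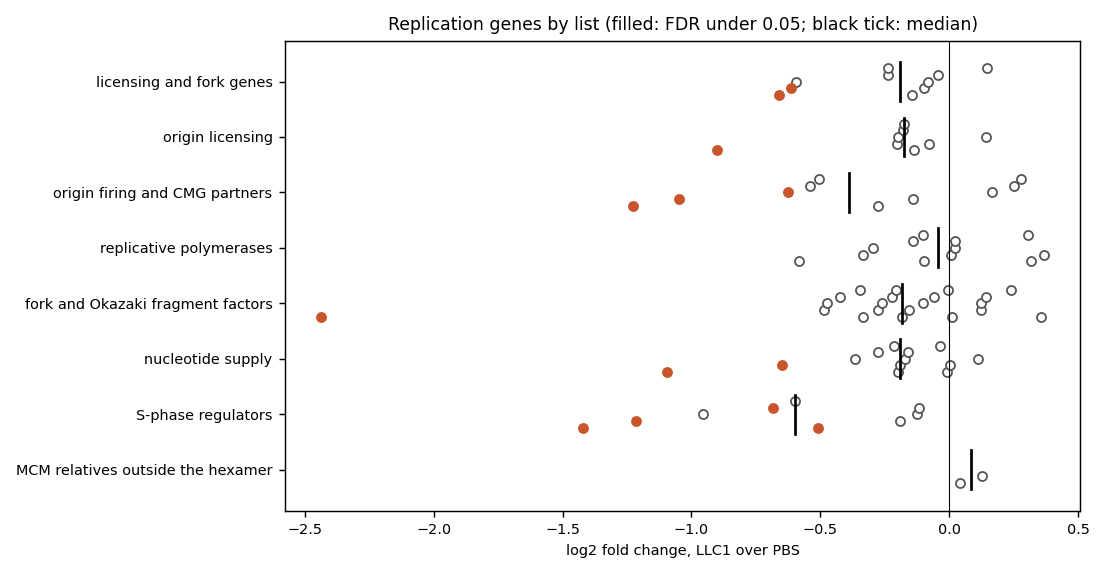
Log2 fold change, LLC1 over PBS (horizontal axis), of the 10 genes and of 7 lists of further replication genes, 1 point per gene, filled at an edgeR FDR under 0.05, with a tick at the median. The S-phase regulators have the lowest median (-0.60), and the 11 filled points of the further lists all lie under 0. These points include Clspn and E2f2, which had few counts and entered the test through the PBS mice.

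Origin licensing and firing depend on loading factors and kinases that act directly on the Mcm2 to Mcm7 ring. Cdt1, which brings the ring to origins, was at 1.01 ± 0.337 CPM in tumor-bearing mice compared to 1.91 ± 0.204 CPM (log2 fold change -0.90, edgeR FDR 0.0456). Both subunits of the kinase that phosphorylates the ring were lower: Cdc7 at 1.07 ± 0.207 compared to 2.23 ± 0.556 CPM (-1.05, FDR 0.0217), and its activator Dbf4 at 0.900 ± 0.0725 compared to 2.11 ± 0.484 CPM (-1.23, FDR 0.00833). Mtbp, a partner in origin firing, was at 2.15 ± 0.188 compared to 3.31 ± 0.442 CPM (-0.63, FDR 0.0339). For these 4 genes, which were picked by their FDR, all LLC1 mice were lower than all PBS mice. This held for 19 of the 75 further genes tested and for 8.27% of all genes tested. Cdc6, which acts with Cdt1, was left out by the filter on low counts, with 5, 3, 9 and 5 counts in the LLC1 mice and 6, 20, 19 and 16 in the PBS mice. When every gene with at least 1 count in any mouse was tested, Cdc6 was lower (log2 fold change -1.62, edgeR FDR 0.0159). So was the firing factor Ticrr (FDR 0.0123). Ticrr had 0 or 1 count in each LLC1 mouse and 1, 10, 7 and 6 in the PBS mice, and its call rests on these few counts. Under this filter Cdt1, Mtbp and Ccne2 no longer passed.

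Rrm2, the small subunit that pairs with Rrm1 and is made mainly in S phase, was measured at 1.72, 1.45, 1.81 and 1.96 CPM in the LLC1 mice and at 3.00, 4.07, 2.94 and 4.84 CPM in the PBS mice. The groups did not overlap, and the log2 fold change of -1.09 (SE 0.20, edgeR FDR 0.00909) was larger in size than that of Rrm1 (-0.24), a difference that was not tested. Rrm2b, the alternative small subunit that is not bound to S phase, was at 33.1 CPM compared to 33.2 CPM (log2 fold change 0.00, FDR 0.995). Dck, which salvages deoxynucleosides, was at 3.29 ± 0.585 compared to 5.16 ± 0.531 CPM (-0.65, FDR 0.0260).

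Among the S-phase regulators, E2f2 (log2 fold change -1.42, edgeR FDR 0.0340), the cyclins Ccne2 (-0.51, FDR 0.0319) and Ccna2 (-0.69, FDR 0.0322), and Uhrf1, which guides DNA methylation to new strands (-1.21, FDR 0.0299), were lower. Clspn, a mediator of the checkpoint at the fork, had 1, 6, 2 and 5 counts in the LLC1 mice and 9, 16, 20 and 24 in the PBS mice, and its log2 fold change of -2.44 (FDR 0.00575) rests on these few counts. E2f2 had 12, 5, 7 and 6 counts in the LLC1 mice and 11, 16, 15 and 30 in the PBS mice. Both genes entered the test through the PBS mice, where they are high, and drop out when at least 10 counts are asked of every mouse, as does Cdt1, which left 8 lower genes. In fits that left out 1 mouse each, Dbf4, Rrm2 and Clspn passed the test in 8 of 8. Cdc7 passed in 4, Dck and E2f2 in 3, Ccna2 and Uhrf1 in 2, and Cdt1, Ccne2 and Mtbp in 1 of 8. Cdt1 also passed in only 5 of the 8 alternatives with all mice that tested it. Not every fork gene had a negative fold change. The single-strand binding subunit Rpa2 was at 16.8 ± 1.96 compared to 13.05 ± 1.18 CPM, all LLC1 mice being higher (log2 fold change 0.36, FDR 0.0530). The polymerase delta subunits Pold1, Pold2 and Pold4 had log2 fold changes of 0.32, 0.31 and 0.37 with FDR of 0.0852, 0.160 and 0.128. That of Pold3 was 0.02 (FDR 0.919).

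Markers of cell types of the ventricle were read in the same libraries. The summed endothelial markers (Pecam1, Cdh5, Kdr, Tie1 and Emcn) were 652 to 768 CPM in tumor-bearing mice and 757 to 1008 CPM in PBS-injected mice, with PBS 1-1 the lowest of the PBS mice and 2 of 5 genes lower (Kdr, log2 fold change -0.61, edgeR FDR 0.00132, and Emcn, -0.31, FDR 0.0205). The fibroblast sum (Pdgfra, Dcn, Lum, Tcf21 and Col1a1) was 607 to 681 CPM and 639 to 738 CPM with 2 of 5 genes lower, and the macrophage sum (Csf1r, Cd68, C1qa and Mrc1) was 116 to 143 CPM and 117 to 178 CPM with 1 of 4 lower. PBS 1-1 was the lowest PBS mouse for each of these 3 sums. Smooth muscle and pericyte markers (Myh11, Acta2, Rgs5 and Pdgfrb) came to 735 to 795 CPM and 845 to 992 CPM, with 0 of 4 passing the test, and there PBS 1-1 (908 CPM) was the second highest PBS mouse. The part of these cell types in the lower replication transcripts was not tested.

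Markers of T cells, B cells and neutrophils were low. Cd3e, Cd3g and Retnlg were at 0 counts in 3 of the 8 mice each and Ms4a1 in 1, while every other marker found was counted in all mice. The T cell sum was 0.302 to 0.527 CPM in tumor-bearing mice and 0.686 to 1.00 CPM in PBS-injected mice, too low for any of the 4 genes to be tested, and the B cell sum was 1.06 to 1.75 CPM and 1.26 to 3.12 CPM. The neutrophil sum was 1.72 to 2.63 CPM in tumor-bearing mice and 0.413 to 1.29 CPM in PBS-injected mice. Of its 3 genes, S100a8 (0.888 compared to 0.279 CPM) and S100a9 (1.13 compared to 0.353 CPM) were tested and passed as higher, but at these levels they entered the test through the LLC1 mice, and Retnlg (0.0953 compared to 0.0803 CPM) was not tested. Erythroid markers overlapped (901 to 3253 CPM and 979 to 1956 CPM). The cardiomyocyte sum was higher in tumor-bearing mice (85017 to 90808 CPM compared to 75629 to 77685 CPM), with 1 of 5 genes passing the test. This was Myh6 (log2 fold change 0.24, FDR 0.0209), which made up most of the sum (mean 54333 compared to 45869 CPM). The log2 fold changes of Tnnt2, Tnni3 and Myl2 were 0.22, 0.20 and 0.13 (FDR 0.0526, 0.158 and 0.372). That of Actc1 was -0.05 (FDR 0.752). The part of these cells in the lower replication transcripts was not tested.

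The genes whose profile over the 8 mice lay nearest to the mean profile of the 10 genes were Cep192, Ifi27, Git2, Arpc4 and Ptbp1. Their root mean square difference from that profile was 0.0488, 0.0543, 0.0557, 0.0581 and 0.0601 on the log2 scale. The 5 were picked as the nearest, and the 10 genes lay farther from their own mean, from 0.111 for Mcm2 and 0.113 for Pcna to 0.349 for Dut. This is a description over 8 mice in 2 groups and carries no test.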

How the data were processed

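Per the labels and the methods of the study, TruSeq mRNA libraries of ventricular RNA were sequenced, and the submitters' processing notes name CASAVA, STAR, featureCounts and build mm10. The values are raw counts of reads per gene as deposited by the authors, whole numbers without normalization. The annotation, strand setting and treatment of multi-mapping reads are not given in the sources used here. Of 43346 genes, 15963 had no count, and no column of values went unmatched to a mouse (0 columns).

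Genes were kept by filterByExpr, scaled by TMM and compared between groups with edgeR 4.0.16 in R 4.3.3 (glmQLFit and glmQLFTest, no covariate, Benjamini-Hochberg adjustment over all 16111 genes, FDR limit 0.05). The common biological coefficient of variation was 0.109. Confidence intervals (95%) used the residual and prior degrees of freedom together (12.06). At 1 CPM a library had 11.66 to 19.88 counts. The permutation test compared mean log2 CPM (prior count 2) over 70 arrangements, with 0.0286 the smallest p. P-values set the difference between the groups against the spread between individual mice, which edgeR estimates partly from all genes tested. No 2 libraries of a group were alike within sampling noise, and pairs across groups were not compared.

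All 10 genes are named, together with Rrm2, the further listed genes with an FDR under 0.05 (up to 4 in each list), and the 5 genes of nearest profile. Rrm2b, Mcm8, Mcm9, Rpa2, Rfc1, Cdc6, Ticrr and the polymerase delta subunits named besides were chosen after their values were seen. The 10 genes, the lists and the tests were chosen with earlier results of these data known. Cell type lists held 3 to 5 markers each.

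Alternatives were upper-quartile scaling, total counts, DESeq2 1.42.0, limma-voom (limma 3.58.1), robust empirical Bayes, other low-count filters (at least 1 count in any mouse, at least 10 in every mouse), the first replicate number as a covariate, gene length offsets (loess span 0.3) and each mouse left out. Exon overlaps came from GENCODE M21 and similar transcripts from BLAST 2.17.0. Promoters are those of RefSeq. The steps were tested on simulated data.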

Additional observations from a re-analysis of the deposited data

Results flagged for a closer look

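For each of the 10 genes, the 4 values of each group were searched for a mouse whose gap to its nearest neighbour exceeded Dixon's critical share of the whole range. Of the 20 sets of 4 values, 1 held such a mouse: Mcm4 in PBS 1-1, at 6.09 CPM compared to 8.89 to 9.39 CPM in the other PBS mice (gap 0.846 of the range). Chance marks about 1 in 20 such sets. PBS 1-1 was also the library that stood apart over all genes, and without it the log2 fold change of Mcm4 was -0.16 (edgeR FDR 0.386).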

How the results depend on the processing

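Of the 10 genes, 2 were lower under 8 of the 9 alternatives with all mice (although with total counts alone they were Mcm6 and Rrm1, not Mcm3, whose FDR was 0.0551) and 1 with the first replicate number as covariate. Leaving out each mouse gave 0 to 3 (0 without LLC1 1-2, 1-5, 2-2, PBS 1-3 or 2-5, and 3 without PBS 1-1). No gene of the 10 was higher in any fit. Their median log2 fold change was -0.25 to -0.12 throughout. Mcm4 changed sign with the covariate (0.0052), and in the fits without 1 mouse Mcm4 ranged from -0.16 to 0.027, Dut from -0.18 to 0.11 and Lig1 from -0.36 to 0.0059.

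Lower genes of the further lists numbered 3 to 14 without 1 mouse, compared to 11. Higher genes of these lists, 0 at first, numbered 1 with DESeq2, robust empirical Bayes or the filter of at least 1 count (Rpa2), 2 with the covariate (Rpa2 and Pold1), 3 with gene length offsets (Rpa2, Pold1 and Rfc1) and 0 to 3 without 1 mouse. Calls over all genes numbered 1406, 1018 to 1757 under the 9 alternatives and 546 to 1923 without 1 mouse, the lowest without PBS 1-3. Fits without 1 mouse had fewer samples; any further cause was not tested. No paired analysis was possible because the groups share 1 replicate code, carried by different mice. At this depth, genes with few counts such as Cdc6 entered the test only under the looser filter.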
